A study of Canis lupus familiaris with 4 samples.

Results

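Chromosome 20 of the dog was examined for chromatin accessibility before and after epithelial cells were detached and reseeded. All accessible regions (peaks) that lay on it were taken, 2582 of 59081 in the whole series, and every one of them could be tested. The chromosome was chosen on the outcome itself: among the 38 numbered chromosomes it had the lowest median fold after reseeding, together with many peaks per Mb. Its folds are therefore given as a description, and no test is drawn from them.

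The cells were MDCKII, an epithelial line from canine kidney that grows into a polarised sheet. ATAC-seq, in which the transposase Tn5 cuts open DNA and adds sequencing adapters, was applied to wild-type cells grown for 7 d to full maturity (2 libraries, A and B). The same was done with cells from such mature sheets, detached and reseeded for 2 h (2 libraries, A and B). The labels name no separate cultures for the libraries of a group, so the spread between them may be technical. The sample names carry a leading number that differs between the groups, and the effect of any batch tied to that number cannot be told apart from that of reseeding. All cells were grown in MEM with FBS and P/S.

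Accessible sites are mostly promoters and enhancers, where nucleosomes give way to transcription factors, and gene-rich stretches of a genome carry many of them. Dog autosomes are acrocentric, with the centromere near one end, so that chromosome 20 runs essentially as a single arm. Genes placed on it by RefSeq in another assembly (UU_Cfam_GSD_1.0) include MITF, the regulator of pigment cells, PPARG, a nuclear receptor of fat cells, and RHOA, a GTPase that organises actin. It also holds LAMB2, a laminin chain of basement membranes, and the receptor gene NOTCH3. These were picked as landmarks for their known roles and not for any value. Peaks carry CanFam3.1 coordinates and were not assigned to genes.

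The counts of all peaks summed to 8759513 (mature A), 6253706 (mature B), 16906566 (reseeded A) and 24015663 (reseeded B). Peaks on chromosome 20 held 5.229% and 5.193% of them in mature A and B, against 4.604% and 4.594% in reseeded A and B. Both reseeded shares lay below both mature shares, and the libraries of a group lay close together.

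Peaks were closely spaced along the chromosome. They ran from position 43535 to 58076803 at 44.5 per Mb, the highest density of the 38 numbered chromosomes after chromosome 9 with 58.3, and followed by chromosome 17 with 40.8. The median distance between neighbouring midpoints was 6.34 kb, the shortest of the 38, against 6.43 kb on chromosome 9 and 6.78 kb on chromosome 17. Peaks also stood in groups: chained over gaps of up to 10 kb, 43.8% of them fell into clusters of at least 5, against 29.9% of peaks on the other 37 numbered chromosomes. Only 17.2% stood alone, against 26.3% elsewhere.

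Chromosome 20 had many small losses and few gains, while its share of losses of 4-fold or more was near that of the other chromosomes. Counts were scaled to CPM, counts relative to a library total adjusted by trimmed-mean factors (TMM), and folds are log2 of reseeded over mature. The median log2 fold was -0.31 on chromosome 20 and 0.02 on the other numbered chromosomes, and the mean was -0.12 against 0.17. Calls were made with edgeR's quasi-likelihood test over all peaks, at a Benjamini-Hochberg threshold of 0.05. On chromosome 20, 1368 peaks (53.0%) were called lower, where 41.8% of all peaks in the series were, and 790 (30.6%) were called higher, where 42.3% of all peaks were. As the contrast chose the chromosome, nothing is read from these counts.

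Divided by size, most called losses were under 2-fold (910 of 1368), and so they were on the other numbered chromosomes (14505 of 22647). The shares below rise with the share called lower at all, so they do not show losses milder than elsewhere. Called peaks lower by under 2-fold numbered 910 (35.2%, against 26.3% on the other numbered chromosomes), the largest share of the 38. Peaks at least 2-fold lower numbered 458 (17.7%, with 15.0% over all peaks), which placed the chromosome at rank 5 of the 38. Peaks at least 4-fold lower made up 5.46%, under the 5.91% of the other numbered chromosomes.

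Gains were few in every size class. At least 2-fold higher accessibility was called at 475 peaks (18.4%, with 26.9% over all peaks), the smallest share of the 38. Gains of under 2-fold, at 12.2% of peaks against 15.6% elsewhere, were the smallest share as well. Gains of at least 4-fold made up 6.43% against 10.4%. The lower quartile of log2 folds was -0.80 on chromosome 20 and -0.62 elsewhere, and the upper quartile was 0.60 against 1.12. The upper side of the distribution thus lay further from the background than the lower side. With offsets fitted by loess along mean level in place of TMM, gains of at least 2-fold numbered 311 and losses of that size 508. The shares over all peaks under loess offsets were not taken, so these counts are not set against other chromosomes.

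**Figure D1:**
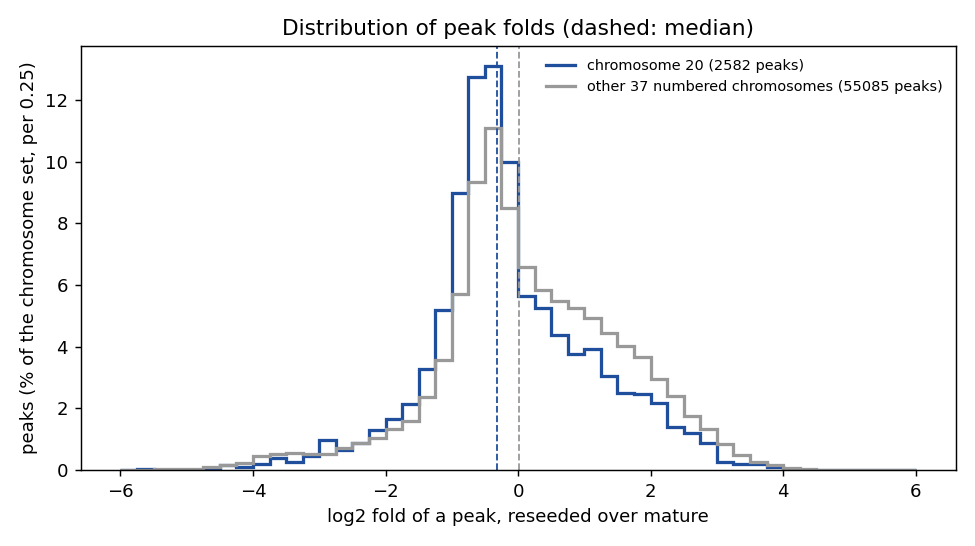
Share of tested peaks (y axis, percent of each set) by log2 fold of reseeded over mature in steps of 0.25 (x axis), for chromosome 20 and for the other 37 numbered chromosomes, with dashed lines at the medians of -0.31 and 0.02. Both sets peak between -0.50 and -0.25, and chromosome 20 has more peaks there and fewer on the side of gains.

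Chromosome 9, the other very dense chromosome, had nearly the same median and as few gains. Gains of at least 2-fold made up 18.6% of its peaks and gains of at least 4-fold 5.67%. Its median log2 fold was -0.28, with 8.23% of peaks at least 4-fold lower and 32.0% lower by under 2-fold. Chromosome 17, dense too, had a median of -0.01, with 24.4% of peaks at least 2-fold higher and 26.2% lower by under 2-fold. No test of these differences was made.

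The fold was also taken for each pair of libraries. The median log2 ratio of reseeded to mature CPM over the peaks of chromosome 20 was -0.30 for A over A and -0.28 for B over B, -0.31 for reseeded B over mature A and -0.28 for reseeded A over mature B. In each of these 4 pairs it was the lowest of the 38 chromosomes, for B over B by little (-0.2837, with -0.2803 next). The chromosome was chosen on these libraries and the pairs share them, so these ranks are a description only. The median CPM of its peaks was 15.0 and 15.2 in mature A and B and 13.3 in each reseeded library. On the other numbered chromosomes it was 12.2 and 12.5 in mature A and B and 12.8 in each reseeded library. Peaks on chromosome 20 were thus stronger than the rest in mature cells and close to the rest in reseeded cells. Both reseeded libraries lay below both mature libraries at 1482 peaks (57.4%, with 45.8% over all peaks) and above both at 867 (33.6%, with 45.7%).

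The libraries of a group were compared as well. The median log2 ratio of B to A was 0.02 in mature and -0.002 in reseeded cells, against 0.02 and -0.0004 on the other numbered chromosomes. At the peaks at least 2-fold higher, where the median CPM was 3.83 in mature A and 4.70 in mature B, this mature ratio was 0.24, and 0.23 elsewhere. At peaks lower by under 2-fold it was -0.05, with medians of 24.1 and 23.5 CPM in mature A and B and 16.3 and 15.9 CPM in reseeded A and B. These fold classes were formed with the mature libraries themselves, so the class values are a description only.

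The chromosome was not lower along its whole length. In blocks of 10 Mb the median log2 fold was -0.01 in the first (456 peaks) and -0.04 in the second (116 peaks). It was 0.77 in the third (244 peaks) and -0.19 in the fourth (376 peaks). In the fifth, from 40000001 to 50000000, it was -0.40 (723 peaks), and in the last, from 50000001 to the end, -0.55 (667 peaks). Of 213 blocks of 10 Mb with at least 50 peaks on the other numbered chromosomes, 2 had a lower median than the last block, 8 a lower one than the fifth, and 201 a lower one than the third. Without the last block the median of the chromosome was -0.19, which would put it at rank 3 from the lowest, and without the fifth -0.26, at rank 2.

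**Figure D2:**
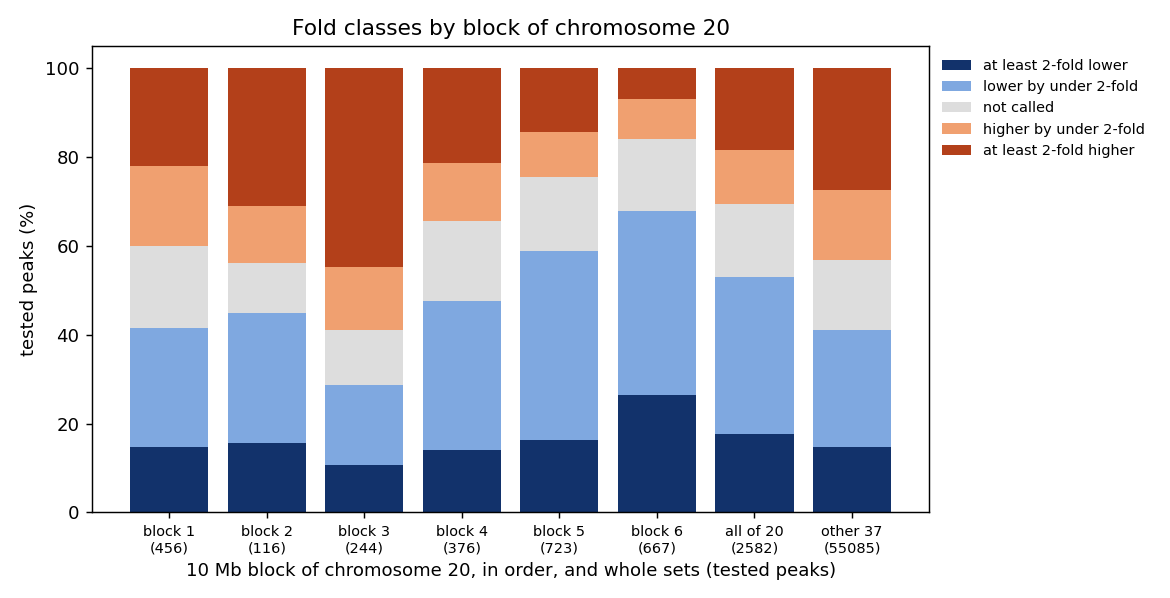
Share of tested peaks (y axis, percent) in 5 classes of fold for the 6 blocks of 10 Mb in order along chromosome 20, for the whole chromosome and for the other 37 numbered chromosomes, with the number of peaks in brackets. The share at least 2-fold higher goes from 44.7% in block 3 to 6.90% in block 6.

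The distal blocks held most of the peaks called lower, and most of the chromosome's peaks as well. In the last block 453 of 667 peaks (67.9%, with 41.8% over all peaks) were called lower. Called higher were 106 (15.9%, with 42.3%). Losses of at least 2-fold numbered 176 (26.4%, with 15.0% over all peaks) and gains of that size 46 (6.90%, with 26.9%). Summed CPM of that block was 16078 and 16070 in mature A and B and 11589 and 11421 in reseeded A and B. Libraries of a group were almost equal there, and the groups lay far apart. In the fifth block the sums were 16346 and 16202 in mature A and B and 13322 and 13268 in reseeded A and B. There 425 peaks were called lower (58.8%) and 177 higher (24.5%). Losses of at least 2-fold numbered 118 (16.3%), near the 15.0% of all peaks, and such gains 104 (14.4%, with 26.9%). From 40 Mb on, 53.8% of the chromosome's peaks held 61.0% and 61.4% of its CPM in mature A and B, but 54.8% and 54.6% in reseeded A and B. The share of signal in reseeded cells was therefore close to the share of peaks.

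Between 20000001 and 30000000 the direction was the opposite. There 109 of 244 peaks (44.7%, with 26.9% over all peaks) had gains of at least 2-fold, and 26 (10.7%, with 15.0%) had losses of that size. Summed CPM was 2819 and 2792 in mature A and B and 3688 and 3682 in reseeded A and B. Peaks in this block had a median of 37 others within 500 kb either side, the fewest of the 6 blocks, against 87 in the last.

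In steps of 1 Mb, 50 of 59 windows held at least 5 peaks and were tested on their summed counts, 3 were empty and 6 held 1 to 4 peaks. Called lower were 31 windows (62.0%, with 42.6% of all windows in the series), and 14 were called higher (28.0%, with 44.3%). No window reached a fold of 2 in either direction, but the window from 20000001, at a log2 fold of 0.99, was past it with upper-quartile factors (1.02), library size alone (1.10) and the factors of the peaks (1.06). The split depended on scaling. Scaled with the factors of the peaks in place of their own, 25 windows were called lower and 17 higher. Scaling by library size alone gave 22 lower and 19 higher, and loess offsets gave 22 lower and 17 higher. The shares of all windows called under these scalings were not taken. The sign of the fold changed at 1, 5 and 10 of the 45 called windows, respectively. The first and second of these settings moved window folds by a median of 0.07 and 0.12 on the log2 scale. Loess offsets moved dense and sparse windows in opposite directions: the window from 57000001 went from -0.93 to -0.54 and that from 20000001 from 0.99 to 0.88.

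Windows of one direction lay side by side. From 36000001 to 51000000, 14 tested windows in a row had log2 folds below 0, from -0.67 to -0.06, and 13 of them were called lower. After a window at 0.01 that was not called, 7 more windows up to the end had folds of -0.93 to -0.42, all called lower. From 19000001 to 29000000, 10 tested windows in a row had folds of 0.12 to 0.99, all called higher. Proximal of 19 Mb the direction changed often, in runs of 1 to 4 windows.

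**Figure D3:**
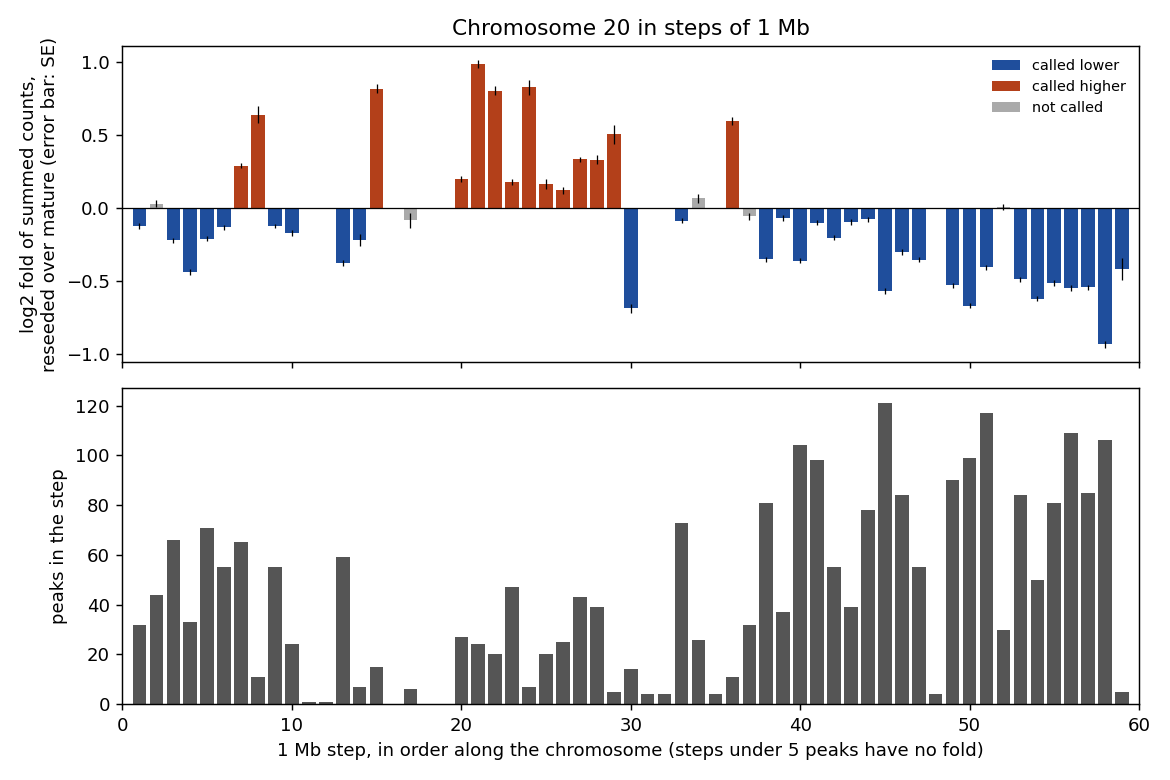
Log2 fold of summed counts with its SE (upper panel) and number of peaks (lower panel) in each 1 Mb window, in order along chromosome 20. Windows called higher cluster in the sparse middle, and the dense distal part is almost all called lower, down to -0.93, under TMM scaling.

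The 5 called windows with the lowest folds included 4 of the dense distal part. The window from 57000001 to 58000000 had 2982 and 3055 CPM in mature A and B and 1607 and 1551 CPM in reseeded A and B. Its log2 fold was -0.93 (SE 0.02), the lowest of the chromosome, at 106 peaks. The window from 49000001 to 50000000 (99 peaks) went from 2768 and 2803 CPM to 1758 and 1745 CPM, a log2 fold of -0.67 (SE 0.02). Mature and reseeded libraries did not overlap in either window. The choice by fold makes this likely, and the share over all windows was not taken. The window from 53000001 to 54000000 had a log2 fold of -0.62 with 50 peaks, and that from 44000001 to 45000000, which held more peaks than any other, 121, had -0.57. The fifth lay outside this stretch, from 29000001 to 30000000, where only 14 peaks summed to 265.3 and 257.2 CPM in mature A and B and 161.0 and 163.8 CPM in reseeded A and B (log2 fold -0.69, SE 0.03). It directly followed the stretch of windows called higher.

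The window from 57000001 was lower almost throughout. Of its 106 peaks, 95 were called lower and 2 higher, and 9 were not called, with 41.8% lower and 42.3% higher over all peaks. Losses of at least 2-fold numbered 41, and gains of that size 0, with 15.0% and 26.9% over all peaks. As the window was named for its low fold, these counts are largely built in. The median CPM of its peaks was 19.95 and 21.2 in mature A and B and 10.6 and 10.9 in reseeded A and B. The quartiles of its log2 folds were -1.38 and -0.55. In each of its 10 steps of 100 kb the median was below 0, from -0.97 to -0.20. The step from 57500001 to 57600000 held 29 peaks, with 1063 and 1035 CPM in mature A and B and 501.2 and 488.2 CPM in reseeded A and B. The peak from 57531633 to 57532133 within it went from 94.9 and 88.0 CPM to 27.3 and 26.2 CPM (log2 fold -1.78, SE 0.07). The 2 peaks called higher, from 57694218 to 57694718 and from 57947696 to 57948196, had log2 folds of 0.82 and 0.27. Apart from 5 peaks beyond 58000000, whose window had a log2 fold of -0.42, this was the end of the chromosome's peaks.

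The 5 called windows with the highest folds were sparse, with 7 to 24 peaks. The window from 20000001 to 21000000 had 241.9 and 238.4 CPM in mature A and B and 470.0 and 482.5 CPM in reseeded A and B, a log2 fold of 0.99 (SE 0.03). Of its 24 peaks 20 were called higher, 15 by at least 2-fold, and 3 were called lower. Over all peaks 42.3% were called higher, 26.9% by at least 2-fold, and 41.8% lower. This window was named for its high fold, so its counts are largely built in too. The neighbouring window from 21000001 to 22000000 had 161.3 and 167.9 CPM in mature A and B and 285.7 and 288.0 CPM in reseeded A and B (log2 fold 0.81, SE 0.03). Groups did not overlap in these windows either, which were chosen by fold too. Windows from 23000001, 14000001 and 7000001 had log2 folds of 0.83, 0.82 and 0.64, with 7, 15 and 11 peaks.

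Under TMM scaling, direction followed the number of peaks in a window. Of 18 windows with at least 60 peaks, 17 had a log2 fold below 0, with a median of -0.38. Of 16 windows with 30 to 59 peaks, 11 did, with a median of -0.11, and of 16 windows with 5 to 29 peaks, 5 did, with a median of 0.18. On the other numbered chromosomes the medians of the same classes were -0.27, -0.01 and 0.13. Across the 50 windows Spearman's rank correlation of fold with peak number was -0.61 and Pearson's r -0.62, and the rank correlation was -0.30 across the 1677 windows of the other numbered chromosomes. Windows share their libraries, and peak number was counted on the same peaks, so these are descriptions. Loess offsets remove a trend of fold with a window's summed level, and summed level rises with peak number. They thus take out much of any relation of fold with peak number by construction, and its origin was not tested. Under loess offsets most of this relation was gone. Spearman's rank correlation was then -0.18, 10 of the 18 windows with at least 60 peaks had a fold below 0, and the medians of the classes were -0.02, -0.03 and 0.08. The 3 windows with the most peaks (121, 117 and 109) had log2 folds of -0.57, -0.41 and -0.55. The 3 tested windows with the fewest (5, 5 and 6) had 0.50, -0.42 and -0.08, so that sparse windows went both ways. With loess offsets the 3 dense windows were at -0.15, -0.0005 and -0.14, the second no longer called, and the 3 sparse ones at 0.26, -0.63 and -0.31. The window with 6 peaks was not called under TMM scaling, was called lower with loess offsets, and had a log2 fold of 0.03 by library size alone.

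Chromosome 20 differed from the others less when peaks of like surroundings were set side by side. The peaks of all numbered chromosomes were divided into quintiles by the number of others nearby. In the densest quintile, with 74 to 156 others within 500 kb either side, lay 47.0% of the chromosome's peaks. Their median log2 fold was -0.49, against -0.34 for peaks of that quintile elsewhere. At least 2-fold gains made up 8.16% of them against 14.4%, and at least 2-fold losses 21.3% against 19.4%. In the next 3 quintiles the difference in medians was -0.08, -0.07 and -0.14. In the sparsest quintile it was the other way, with 0.65 on chromosome 20 (182 peaks) against 0.39. Over all peaks the difference in medians was -0.33, and with loess offsets it was -0.16.

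Set side by side by strength, the difference depended on which libraries measured it. By quintiles of mean CPM with the groups weighted equally, chromosome 20 less the others gave -0.32, -0.51, -0.27, -0.16 and -0.10 from the weakest to the strongest. Quintiles of mature CPM share the mature libraries with the fold, so the fold declines along them partly by construction. Within these quintiles the difference in medians, chromosome 20 less the others, lay between -0.15 and -0.03. In the weakest quintile, up to 5.05 CPM, the median log2 fold was 1.85 on chromosome 20 and 1.88 elsewhere. In the strongest quintile, from 25.2 CPM, it was -0.53 and -0.49. The chromosome had 26.4% of its peaks in this strongest quintile and 12.4% in the weakest. By quintiles of reseeded CPM the differences were larger, from -0.47 to -0.08. These quintiles share the reseeded libraries with the fold, so the differences by mature and by reseeded CPM both depend partly on construction.

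**Figure D4:**
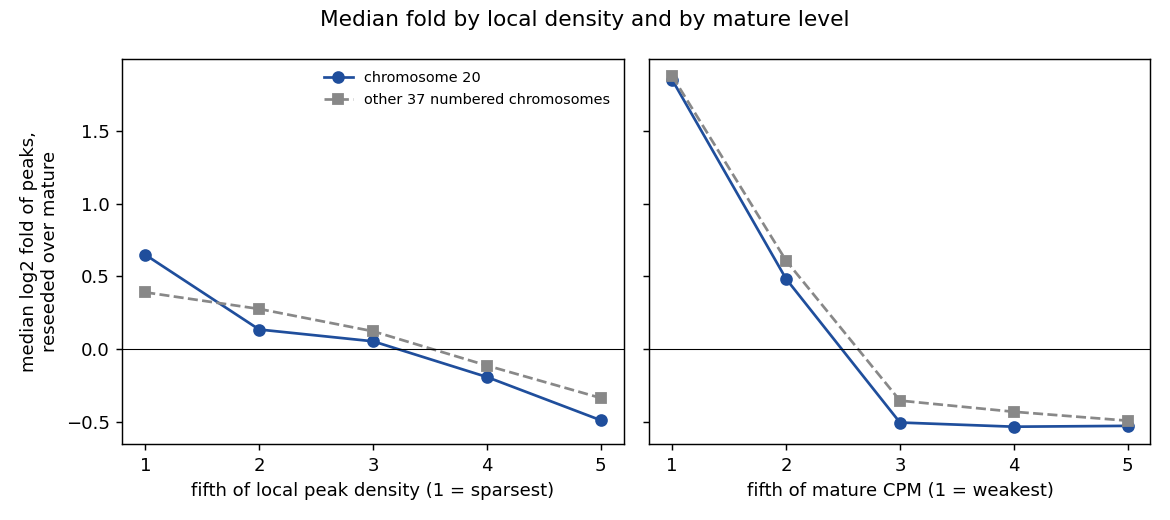
Median log2 fold of peaks, reseeded over mature (y axis), by quintile of the number of peaks within 500 kb either side (left) and by quintile of mature CPM (right), for chromosome 20 and the other 37 numbered chromosomes. In the densest quintile the medians are -0.49 and -0.34, and by mature CPM the lines differ by 0.15 at most. By quintiles of mean CPM and of reseeded CPM, not drawn, chromosome 20 less the others reaches -0.51 and -0.47.

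Mature accessibility per peak varied along the chromosome more than reseeded accessibility did. Averaged over the peaks of each of the 50 windows, it ranged from 6.98 to 28.0 CPM in mature A and from 7.60 to 27.6 CPM in mature B. In reseeded A it ranged from 9.69 to 26.1 CPM and in reseeded B from 9.60 to 26.5 CPM. The ratio of the 90th to the 10th percentile was 2.76 and 2.75 in mature A and B and 1.60 in both reseeded libraries. The coefficient of variation between windows was 32.8% and 32.0% in mature A and B and 17.7% and 18.5% in reseeded A and B. This was not particular to chromosome 20: on all 38 numbered chromosomes both mature libraries varied more between windows than both reseeded ones, and on 14 of the others the ratio of mature to reseeded variation was larger.

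Peak number and strength went together mainly in mature cells. Across the 50 windows, Spearman's rank correlation of peak number with mean CPM per peak was 0.72 in mature A and 0.73 in mature B, and 0.36 and 0.33 in reseeded A and B. On the other numbered chromosomes it was 0.40 and 0.43 in mature A and B and 0.26 in both reseeded libraries. By 10 Mb block, the median mature CPM of a peak went from 8.98 in the third to 18.6 in the last, whereas the median reseeded CPM stayed between 11.8 and 14.6 in all 6 blocks. Blocks thus differed in the strength of a typical peak mainly in mature cells.

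**Figure D5:**
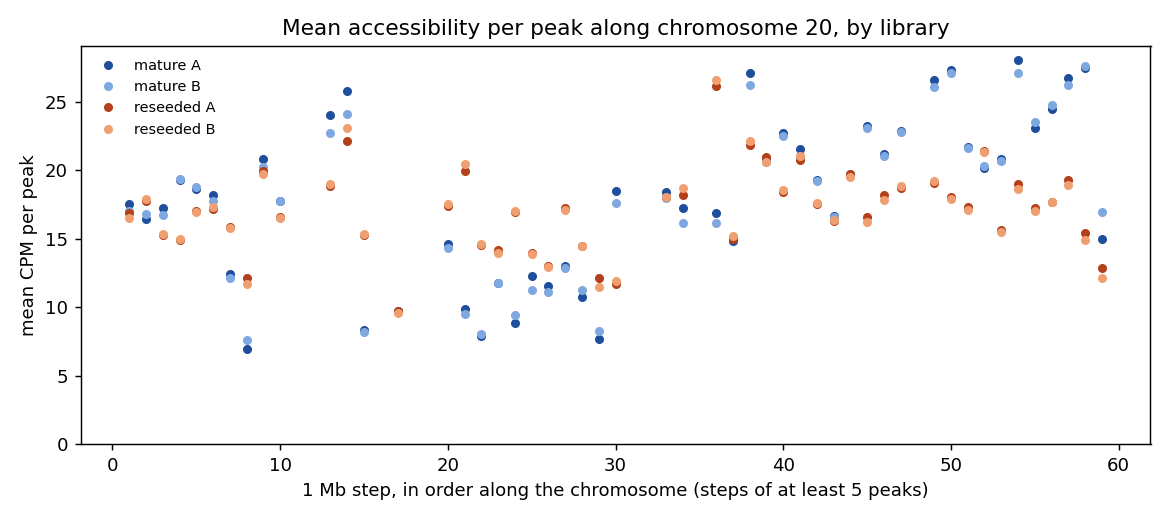
Mean CPM per peak (y axis) in each 1 Mb window of at least 5 peaks, in order along chromosome 20, with a point for each of the 4 libraries. Mature points spread from 6.98 to 28.0 CPM and reseeded points from 9.60 to 26.5 CPM, with mature points mostly below reseeded ones in the middle and mostly above them in the distal part.

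Under TMM scaling, clustered peaks were lower than lone ones, and loess offsets were not tried on these classes. In clusters of at least 10 peaks the median log2 fold was -0.49 (466 peaks), in clusters of 5 to 9 it was -0.41 (664 peaks), in those of 2 to 4 it was -0.20 (1008 peaks), and at lone peaks -0.04 (444 peaks). The same classes gave -0.41, -0.13, 0.06 and 0.38 on the other numbered chromosomes, a wider range. Of 135 clusters of at least 5 peaks, 108 (80.0%) had a median below 0, against 58.0% of 2197 such clusters on the other numbered chromosomes. In 14 (10.4%, against 4.82%) every peak was called lower, all of them distal of 43 Mb, and in 0 (against 2.50%) was every peak called higher. No cluster had all its peaks at least 2-fold lower. Losses within clusters thus differed in size.

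The 5 clusters with the most peaks behaved differently from one another. The first, from 48582098 to 48661402, had 29 peaks in 79.3 kb, of which 19 were called lower and 4 higher, and summed to 765.2 and 757.6 CPM in mature A and B and 570.5 and 578.9 CPM in reseeded A and B. The second, from 32482774 to 32579761, had 28 peaks, with 12 called lower and 12 higher, and a median log2 fold of 0.09. Its sums were 698.1 and 678.4 CPM in mature A and B and 625.4 and 621.3 CPM in reseeded A and B. In this cluster gains and losses stood side by side.

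The third, from 54175941 to 54251502, was lower at 21 of 25 peaks, 17 of them by at least 2-fold, and summed to 670.2 and 712.9 CPM in mature A and B and 374.5 and 364.8 CPM in reseeded A and B. The fourth, from 57518132 to 57550024, was called lower at 21 of 22 peaks and higher at 0, with sums of 825.8 and 807.6 CPM in mature A and B and 375.3 and 361.5 CPM in reseeded A and B. The fifth, from 44685448 to 44742863, had 11 of 20 peaks called lower and 5 higher.

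Folds of neighbouring peaks were correlated. For adjacent peaks up to 1 kb apart the correlation of log2 folds was 0.46 on chromosome 20 (375 pairs) and 0.60 on the other numbered chromosomes (6240 pairs), and 73.1% and 72.5% of pairs had one sign. From 5 to 20 kb apart it was 0.20 against 0.19, and from 20 to 100 kb apart 0.16 (495 pairs) against 0.13. Pairs share libraries and neighbouring pairs share a peak, so these values are descriptions, and their differences were not tested.

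Where the mean count was 50 or more and the groups did not overlap, the 6 called peaks with the largest losses lay distal of 39 Mb. Most peaks of the chromosome lay there too: 53.8% from position 40000001 on, and 104 peaks in the window from 39000001. Of the largest gains, those from 42759846, 43475748 and 51806156 lay there as well, and those from 960692, 26433511 and 27802011 did not. The place of these losses is therefore a description only. The peak from 44145041 to 44145541 had 14.9 and 16.7 CPM in mature A and B and 0.29 and 0.37 CPM in reseeded A and B, from 128, 103, 5 and 9 counts. Its log2 fold was -5.50 (SE 0.32), with a 95% counting interval of 27.0 to 86.0 for the pooled ratio of mature to reseeded. Both reseeded values were small, but above the floor of 3 counts, which equals 0.18 and 0.12 CPM in reseeded A and B. The peak from 44908585 to 44909085 had 15.8 and 12.8 CPM in mature A and B and 0.76 and 0.61 CPM in reseeded A and B (log2 fold -4.40, SE 0.29). Of 16 other peaks within 50 kb of it, 7 had losses of at least 2-fold and 0 had gains of that size.

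The peak from 39924786 to 39925286 had 23.2 and 23.6 CPM in mature A and B and 1.34 and 1.02 CPM in reseeded A and B, a log2 fold of -4.33 (SE 0.19). Of 7 other peaks within 50 kb, 0 were at least 2-fold lower. Milder losses lay nearby: in the cluster from 39888816 to 39900102, 4 of 5 peaks were called lower, with a median log2 fold of -0.31. The peaks from 53939713, 54213013 and 49835143 followed, with log2 folds of -4.25, -4.04 and -4.03. Around the second of these, which belongs to the third cluster above, 16 of 24 peaks within 50 kb were at least 2-fold lower, and around the first 0 of 4. Deep losses thus occurred both with and without other losses of at least 2-fold within 50 kb. Under loess offsets the 6 losses were larger, with log2 folds of -8.51 to -5.64.

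The largest gains had weak mature signal, which their choice by fold makes likely. Each met the limit on mean count through its reseeded counts, and the reseeded libraries had the larger summed counts. Deep losses had to meet it mostly on mature counts, so gains and losses were not selected alike. The peak from 42759846 to 42760346 had 0.93 and 2.75 CPM in mature A and B (8 and 17 counts) and 25.7 and 24.0 CPM in reseeded A and B, a log2 fold of 3.86 (SE 0.21). The mature libraries disagreed here, and leaving out mature A gave a log2 fold of 3.16, leaving out mature B one of 4.71. The peak from 960692 to 961192 had 2.55 and 3.24 CPM in mature A and B and 40.7 and 39.95 CPM in reseeded A and B (log2 fold 3.82, SE 0.15). The strongest of the 6 after reseeding, from 51806156 to 51806656, had 3.48 and 3.73 CPM in mature A and B and 41.7 and 48.0 CPM in reseeded A and B (log2 fold 3.65, SE 0.15). It lay in the window from 51000001, which was tested and not called. The other 3, from 27802011, 26433511 and 43475748, had log2 folds of 3.80, 3.71 and 3.57. Under loess offsets the gains from 42759846, 27802011 and 26433511 were smaller, at 3.07, 2.19 and 1.55.

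The strongest peaks of the chromosome were all mildly lower under TMM scaling. The peak from 50487239 to 50487739 had 125.8 and 124.1 CPM in mature A and B and 94.1 and 94.3 CPM in reseeded A and B (log2 fold -0.41, SE 0.06). The peak from 53554126 to 53554626 had 126.7 and 111.1 CPM in mature A and B and 78.8 and 74.6 CPM in reseeded A and B (log2 fold -0.64, SE 0.07). Those from 43846376, 48398161 and 44074595 had log2 folds of -0.48, -0.35 and -0.29. Groups did not overlap at any of the 5, which most peaks of the series share. Over all peaks, both reseeded libraries lay below both mature ones at 45.8% and above both at 45.7%. The direction rested on the scaling. Under loess offsets the peaks from 50487239, 48398161 and 44074595 had log2 folds of 0.07, 0.12 and 0.17. The peak from 43846376 was at -0.005 and no longer called, and that from 53554126 was at -0.20 and still called. Among the strongest 10% of peaks on chromosome 20 (259 peaks, from 37.4 CPM), 196 were called lower (75.7%) and 28 higher (10.8%), with 19 and 5 by at least 2-fold. Of the strongest 10% elsewhere 66.8% were called lower and 20.2% higher, so that strong peaks were mostly lower there too. The median log2 fold of these strong peaks was -0.45, and it was -0.36 for the strongest 10% elsewhere.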

How the data were processed

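The authors deposited a table of raw counts, not normalized, for peaks of 501 bp in 4 libraries. Per the submitters' processing notes, Bowtie2 and MACS2 were used with build CanFam3.1. Not given in the sources used here: versions, settings, duplicate handling, the Tn5 offset, what was counted and how peaks were kept. A peak set chosen by detection lacks sites weak in both groups. Chromosomes were read from sequence accessions, and positions count from 1.

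All 59081 peaks were fitted together (R 4.3.3, edgeR 4.0.16): filterByExpr kept 59076, followed by TMM factors, the quasi-likelihood test without a block, and Benjamini-Hochberg adjustment. Counts in windows of 1 Mb with at least 5 peaks (1803) were fitted likewise with their own factors. The SE of a fold came from the fold and its F statistic. Ratios of libraries used CPM + 0.5. Counting intervals are Clopper-Pearson and, like floors, cover counting error only. On simulated counts for 59081 peaks, recovery was 133 of 200 for peaks altered 1.5-fold and 193 of 200 for those altered 2-fold. Python (numpy 2.4.6, pandas 2.3.3, scipy 1.17.1, matplotlib 3.10.9) gave descriptions and figures.

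Named regions followed a rule: the 6 highest and 6 lowest folds (called peaks only, groups not overlapping, mean count 50 or more), the 5 strongest peaks, the 5 highest and 5 lowest called windows, the 3 windows with most and with fewest peaks, and the 5 largest clusters. The chromosome, these rules and the lists were chosen with earlier results of these data known. Peaks named within the window from 57000001 were chosen after their values were seen. Alternatives were other scalings (DESeq2 size factors, DESeq2 1.42.0), filters, tests, windows and left-out libraries. Peaks were not assigned to genes and no sequences are shown, because no genome of the build was used here.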

Additional observations from a re-analysis of the deposited data

How the results depend on the processing

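Of 181 alternatives for the main counts and medians, 148 stayed within 1.5 times the count or within the spread of the library pairs, and 33 did not. Some of the 148 could hardly differ. The count filters dropped almost no peak, and the test against a fold of 1.5 leaves the folds as they are. The limit is also wide: 22 windows called lower by library size alone, in place of 31, stayed within it. The tally is therefore no measure of stability. The median log2 fold of chromosome 20 was -0.27 by upper-quartile factors (-0.2720) and by library size alone (-0.2718), -0.33 with TMM factors taken without chromosome 20, -0.26 under loess offsets, and -0.29 to -0.33 with a library left out. Its difference from the other numbered chromosomes was -0.16 under loess offsets and -0.32 to -0.34 with a library left out. It was the lowest median of the 38 under 14 of the 15 other settings fitted to peaks, and the second lowest under loess offsets. These settings reuse the libraries on which the chromosome was chosen, so the ranks are a description. Settings without a 10 Mb block were added after the data were seen, as were window sums scaled by the factors of the peaks. The median without the first to the last block, except the second, was -0.354, -0.3538, -0.33, -0.26 and -0.19, and the difference -0.3751, -0.375, -0.35, -0.28 and -0.21. Gains of at least 2-fold numbered 311 under loess offsets, which also took the rank correlation of window fold with peak number from -0.61 to -0.18. That fall is partly built in, because these offsets remove a trend with summed level. Against a fold of 1.5, where small folds no longer pass, 1251 peaks (700 lower) and 7 windows (3 lower, 4 higher) were called. For these alternative tests and scalings, the shares called over all peaks and windows were not taken. As more or fewer windows were tested, 500 kb gave 77 calls (52 lower, 25 higher) among 87 windows and 5 Mb gave 10 (7 lower, 3 higher) among 12. Over all chromosomes, 2477 of 2891 windows of 500 kb and 412 of 474 windows of 5 Mb were called in either direction. Gaps of up to 5 kb gave 70 clusters of at least 5 peaks.

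The replicate block by library letter called 2132 peaks and 45 windows and changed no call of a named region. The letters did not show pairing, since the A to B difference in mature cells and that in reseeded cells had a correlation of 0.03 over all peaks. Of 495 alternatives for named regions 476 changed neither direction nor call, with the filters, which could hardly differ, among them. The direction turned under loess offsets at the strong peaks from 50487239 (0.0706), 48398161 (0.12) and 44074595 (0.17), and by library size alone at the window from 16000001 (0.0319), which loess offsets called lower (-0.31). These causes were not tested. Mature depth limits the weakest peaks: the floor of 3 counts equals 0.35 and 0.49 CPM in mature A and B.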
